A study of Mus musculus with 28 samples.

Results

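The genes for the proteins of the cytosolic ribosome were followed across sorted brain macrophages of mice transplanted with bone marrow. Members were all gene symbols made of Rpl or Rps with a number (and an optional a or x), or with the endings that name the stalk proteins and Rpsa. The pattern leaves out pseudogenes, ribosomal kinases and mitochondrial ribosomal proteins. It found 76 of 14617 genes, of which 46 encode proteins of the large (60S) and 30 of the small (40S) subunit. The filter on low counts kept 75 of them among 12327 genes tested. The exception was Rpl24, a large subunit gene with 66 UMIs in all 28 libraries together and none in 4 of them. By the GENCODE M21 annotation the members lie on 19 chromosomes, with 14 of them on chromosome 7 and 4 on X.

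Messenger RNA was counted by MARS-seq, a method that reads the 3′ end of each polyadenylated transcript and counts unique molecular identifiers (UMIs), so that a transcript counts once whatever its length. Host mice were Cx3cr1 gfp/+, which marks their own brain macrophages with GFP, and all had been lethally irradiated. All received marrow with the hDNMT3A fl/fl allele, with Vav-Cre, a recombinase driven in blood-forming cells, in the mutant arm and no Cre in the control arm. Cells were taken 16 weeks after transplantation. GFP-negative donor cells (MoMg in the labels) and GFP-positive host cells (hostMg) were sorted from the parenchyma and are called donor and host microglia here. The same sort on leptomeningeal cells, washed from the brain surface before the parenchyma was digested, gave donor (leptoMoMac) and host (leptohostMac) leptomeningeal macrophages. Origin was read from GFP. For host cells "mutant" names the marrow their mouse received, not an allele of their own. Each group held 4 libraries, except 2 for each host leptomeningeal group. The ages and sexes of the mice, and whether libraries came from separate animals, are not stated by the labels. The p-values therefore measure the scatter of libraries, which may be technical.

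A ribosome is built from ribosomal RNAs and a set of proteins present in about equal numbers, and making it is among the largest costs of a growing cell. In vertebrates the messenger RNAs of ribosomal proteins share a 5′ terminal oligopyrimidine (TOP) tract, a C followed by a run of C and T at the first transcribed bases. Through this tract the mTOR kinase complex and the RNA-binding protein Larp1 set how strongly these messages are translated and how long they last. In microglia, as in other cells, ribosomal protein messages are abundant housekeeping transcripts.

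Libraries held 479077 to 3066506 UMIs (median 1634653.5). The donor microglia were the shallowest, at 589500 ± 88200 UMIs in control and 861200 ± 252000 in mutant cells (SD, n = 4 each). The levels of 2 defining markers were read beside the labels. P2ry12, a receptor of resting microglia, was at 1907 to 4360 CPM (counts scaled to a library total of 1e6) in host microglia, 230.5 to 444.5 in donor microglia, 548 to 1186 in host leptomeningeal macrophages and 39.4 to 165.5 in donor leptomeningeal cells. Mrc1, a receptor of border macrophages, was at 13.6 to 23.4 CPM in host microglia, 172.8 to 277.2 in donor microglia, 348.3 to 565.2 in donor and 1017 to 1630 in host leptomeningeal cells. P2ry12 was thus higher in host leptomeningeal macrophages than in donor microglia, and Mrc1 was well above the host microglial level in donor microglia. The mouse gene Dnmt3a did not pass between genotypes in donor microglia (log2 fold -0.09 ± 0.18, adjusted p = 0.905, edgeR quasi-likelihood test), and its row is not known to count the human allele, so it checks no label. All 18 neutrophil marker genes had UMIs in every group, except Elane and Mpo in mutant host leptomeningeal cells. Together they took 3.67 to 9.85% of UMIs in donor leptomeningeal libraries against 0.0592 to 1.11% in all other groups. All 11 astrocyte and 13 neuron markers had UMIs in donor microglia. The same held in the other groups, except for Aqp4 and Map2 in control host microglia and Gad1 in mutant donor leptomeningeal cells.

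The promoters of Rpl38 and Rps6 are shown first, because these were the 2 members called between genotypes, and that of Rpl39 because its level ranged most widely (chosen after its values were seen). Each window runs from 60 bases before the RefSeq start to the 20th base of the transcript, 5′ to 3′ on the gene's strand, on GRCm38.p6, with the TOP-like run at the start in capitals.
Rpl38: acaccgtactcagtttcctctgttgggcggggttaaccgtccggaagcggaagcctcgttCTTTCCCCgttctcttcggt
Rps6: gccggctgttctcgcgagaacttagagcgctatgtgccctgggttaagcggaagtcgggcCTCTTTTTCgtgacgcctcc
Rpl39: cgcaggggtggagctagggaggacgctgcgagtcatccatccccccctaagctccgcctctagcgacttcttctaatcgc
The windows lie at chr11:114668520-114668599 (+ strand), chr4:86857348-86857427 (- strand) and chrX:37085203-37085282 (- strand). Rpl38 opened with 8 pyrimidines and Rps6 with 9, while the RefSeq start of Rpl39 held no such run, which says only that these letters are not at that position. A run of that kind, cttcttct, stands a few bases inside the Rpl39 transcript. The GENCODE coordinates given below place the start of each of these genes further upstream.

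RefSeq windows (250 bases before to 50 after the start) were matched to 56 of the 76 members. A C followed by at least 4 C or T stood exactly at the annotated start, on the gene's strand, in 13 of 56 members (23.2%) and in 2.97% of 26969 other genes. Within 15 bases on either side of the start the same run was found in 38 members (67.9%) and in 42.5% of the other genes. The letters CCGGAAG, on either strand, were in 23 members (41.1%) and in 9.86% of the others. AAGATGGC, on either strand, was in 5 members (8.93%) against 3.18%, and CACGTG in 6 (10.7%) against 8.09%. TATAAA on the gene's strand was in 5 members (8.93%) against 9.77%. These shares describe sequence, and no factor's binding was measured.

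As a family, ribosomal protein transcripts took 3.98 to 15.0% of all UMIs, and the 4 populations occupied separate ranges. In host microglia the share was 3.98%, 4.13%, 4.34% and 4.46% in the control libraries and 4.14%, 4.42%, 4.44% and 4.80% in the mutant ones (4.23 ± 0.216% and 4.45 ± 0.268%, SD, n = 4). Donor microglia gave 7.67%, 8.13%, 7.78% and 7.03% in the control and 8.75%, 9.42%, 8.91% and 8.71% in the mutant libraries (7.65 ± 0.458% and 8.95 ± 0.325%). Every mutant donor microglia library thus lay above every control one. Host leptomeningeal macrophages gave 9.82% and 10.3% in the control and 11.2% and 9.90% in the mutant libraries. Donor leptomeningeal cells were highest, at 12.6%, 11.8%, 13.2% and 12.3% in the control and 14.6%, 15.0%, 13.3% and 13.6% in the mutant libraries (12.5 ± 0.578% and 14.1 ± 0.833%). Here too the genotypes did not overlap, by 13.2% against 13.3% at the nearest. The share sums over chosen members and was given no test. In bulk samples such as these, a change in the mix of sorted cells and a change in RNA per cell cannot be told apart.

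**Figure D1:**
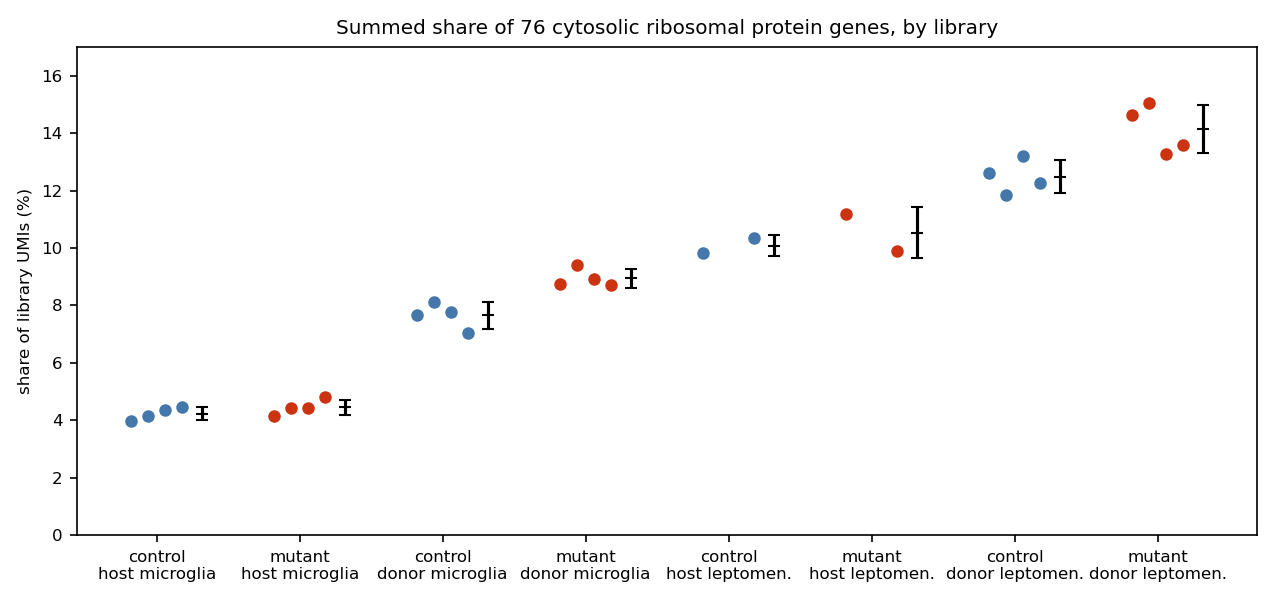
Share of all UMIs that fell on the 76 ribosomal protein genes (percent, y axis) in each of the 28 libraries, by group (x axis); points are libraries, bars mark the mean and SD. Host microglia sat at 3.98 to 4.80%, donor microglia at 7.03 to 9.42%, and donor leptomeningeal cells at 11.8 to 15.0%.

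The level differed widely among members. Rplp1, an acidic protein of the ribosomal stalk that recruits elongation factors, was the most abundant at 5926 CPM on the mean of the 8 groups. Rps14 (3758 CPM), the stalk protein Rplp2 (3343 CPM) and Rps29 (3063 CPM) came next. The lowest after Rpl24 (1.64 CPM) were Rps10 (49.7 CPM), Rpl13a (65.4 CPM), Rps6 (231.4 CPM) and Rpl15 (237.0 CPM). The level of Rps10 is uncertain, since its pseudogene rows Rps10-ps1 and Rps10-ps2 were at 36.75 and 15.94 CPM. How reads shared with these copies were assigned is not stated. The same limit holds for Rpl13a and Rps6, with Rpl13a-ps1 at 10.42 CPM and Rps6-ps3 at 3.458 CPM. Whether the low count of Rpl24 reflects its expression was not tested. The 5 most abundant members of a group held 19.8 to 23.6% of the family's UMIs on the mean. Between libraries of 1 group a member's CPM varied little, with a median coefficient of variation of 5.78 to 11.6% over the 75 tested members.

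Mutant and control donor microglia were compared to find what the marrow genotype changed in these cells. Rpl38 and Rps6 rose in the mutant cells, and no member fell. Rpl38 encodes a small protein at the surface of the large subunit, known from mouse embryos for its part in translating Hox messages (chromosome 11, 114668524 to 114672331). Its level was 254.7, 383, 323 and 246 CPM in the control and 528, 453, 619 and 459.6 CPM in the mutant libraries 1 to 4. Each mutant value exceeded each control value, and the log2 fold was 0.78 ± 0.15 (SE; adjusted p = 0.0124, edgeR quasi-likelihood test). Rps6, the small subunit protein that S6 kinase phosphorylates downstream of mTOR (chromosome 4, 86854660 to 86857412), was at 179.5, 196, 161 and 158 CPM in the control and 397, 225, 265 and 199 CPM in the mutant libraries. The groups did not overlap, but by 196 against 199 CPM, and library 1 of the mutant cells stood highest (log2 fold 0.67 ± 0.14, adjusted p = 0.0308).

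These were 2 of 75 members, while 0.0568% of all genes tested were called higher and 0.0324% lower in this comparison. The rest of the family lay to the same side: 73 of 75 folds were above 0, with a median of 0.26 (quartiles 0.15 to 0.39), where the median of all genes was 0.00. The folds ran from -0.05 in Rpl7 to 0.79 in Rpl37a. In 18 members every mutant library exceeded every control library, which held for 1.46% of all genes tested. Among these were the stalk genes Rplp0 (log2 fold 0.24 ± 0.10, adjusted p = 0.419) and Rplp1 (0.23 ± 0.11, adjusted p = 0.468) and the small subunit gene Rps14 (0.46 ± 0.12, adjusted p = 0.117). Rps14 was at 2689, 2604, 2282 and 2155 CPM in the control and 3530, 3423, 3335 and 2996 CPM in the mutant libraries. The largest fold belonged to Rpl37a, at 323.5, 416, 336 and 258 CPM against 669.9, 459, 762 and 402 CPM, which did not pass (0.79 ± 0.18, adjusted p = 0.097). Rpl37, a different large subunit gene in spite of its name, gave 0.69 ± 0.19 (adjusted p = 0.178). Large and small subunit genes had medians of 0.24 and 0.29. All members were read in the same libraries and can shift together. Counts of folds above 0, or of members whose genotypes did not overlap, are therefore not separate observations, here and below.

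The calls in donor microglia depended on single libraries. Rpl38 missed the threshold without control library 1 (adjusted p = 0.0788), control library 4 (0.1) or mutant library 3 (0.058). Rps6 missed it without control library 1 (0.0788), 3 (0.138) or 4 (0.178), or mutant library 1 (0.23, with the log2 fold down to 0.43) or 3 (0.0556). The number of members called was 0 without control library 1, control library 4 or mutant library 3, 1 without control library 3 or mutant library 1, 6 without mutant library 4 (where 0.106% of all genes were higher), and 23 without control library 2 (3.88%). Without both control library 1 and mutant library 4, named in earlier work on these data as standing apart, 2 were called, Rps6 and Rps7, and Rpl38 missed the threshold (adjusted p = 0.0782). With all libraries, DESeq2's Wald test called 17 members (0.414% of all genes higher) and limma voom 11 (1.05%), and edgeR on these 2 groups alone called 0 (0.041%). The family median stayed between 0.22 and 0.33 without any 1 library. Of all UMIs, astrocyte markers held 0.110%, 0.507%, 0.145% and 0.181% in the control and 0.285%, 0.398%, 0.475% and 0.313% in the mutant donor microglia. Neuron markers took 0.0376%, 0.169%, 0.0502% and 0.0773% against 0.127%, 0.165%, 0.202% and 0.127%. Neutrophil markers took 0.143%, 0.314%, 0.864% and 1.11% against 0.112 to 0.194%. Mitochondrially encoded genes took 1.58 to 4.72% against 2.51 to 4.13%. Their part in the result was not tested.

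**Figure D2:**
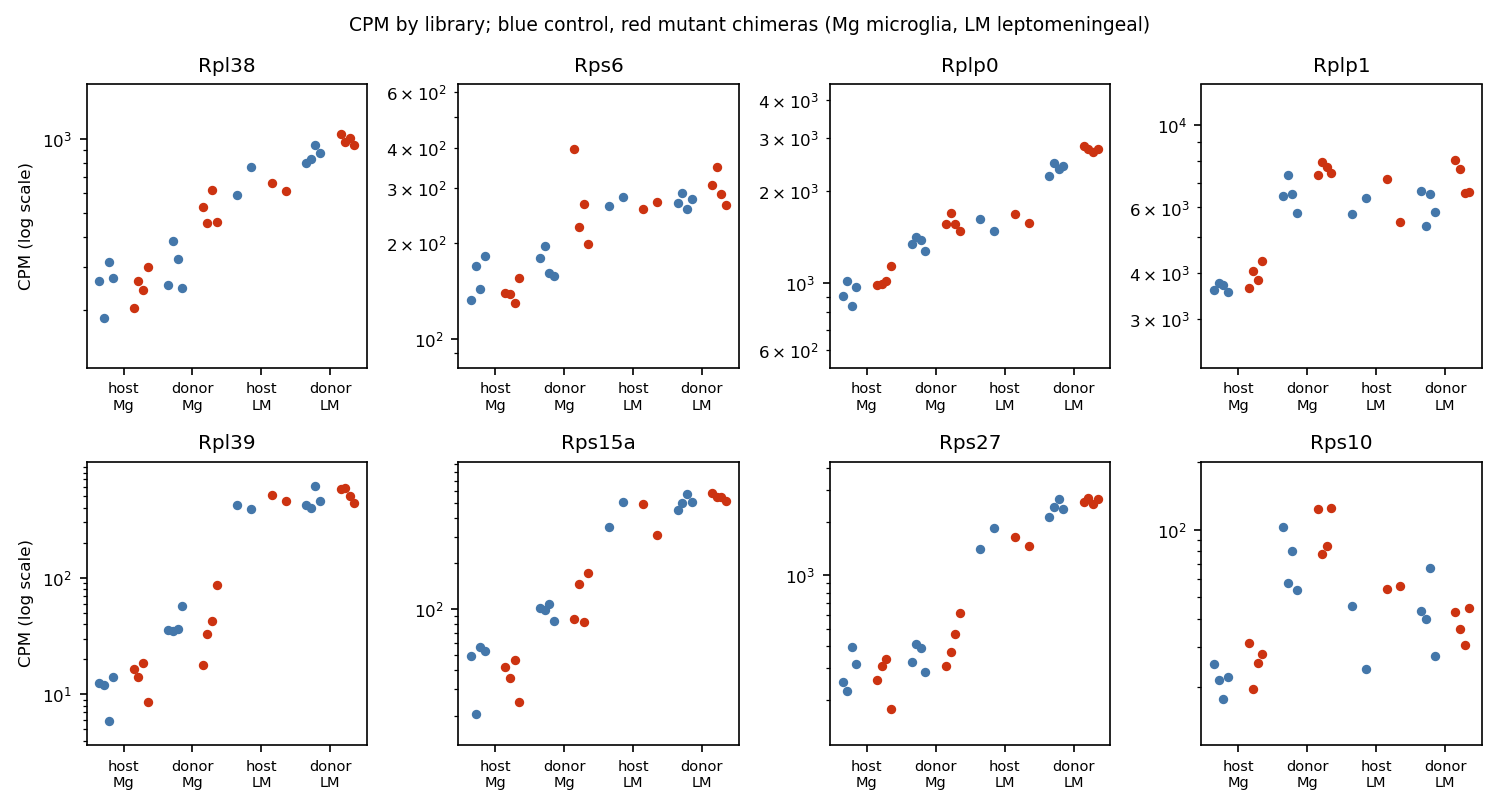
Level (CPM, log axis) of 8 members in every library, by group (x axis); each point is 1 library. Rpl38, Rps6, Rplp0 and Rplp1 separate the genotypes in donor microglia, Rps6 and Rplp1 only narrowly, and of these only Rpl38 and Rps6 were called. Rpl39, Rps15a and Rps27 separate parenchyma from leptomeninges, and Rps10 is highest in donor microglia.

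In host microglia no member was called between recipients of mutant and control marrow. All genes tested gave 0.0568% higher and 0.00811% lower. The family median was 0.08 against 0.02 for all genes, 59 of 75 folds were above 0, and 4 members had an unadjusted p under 0.05. No member had every mutant library above every control library, against 1.61% of all genes tested. Rpl38 was at 263, 186, 316 and 270.4 CPM in the control and 205, 264, 241 and 301 CPM in the mutant libraries (log2 fold 0.00 ± 0.14, adjusted p = 1). Rps6 was at 132, 169.5, 143.5 and 182.5 CPM against 139, 139, 129 and 156 CPM (-0.12 ± 0.13, adjusted p = 1). For both genes the genotypes overlapped.

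The difference between the genotype effects of donor and host microglia was tested directly, and no member passed (0.0162% of all genes tested were higher and 0.0162% lower). Rps6 had a difference of 0.79 ± 0.19 (adjusted p = 0.268, 0.0114 to 0.649 over the alternatives) and Rpl38 of 0.78 ± 0.20 (adjusted p = 0.333, 0.00881 to 0.689). Without control donor library 2, 3 members passed, Rpl38 (adjusted p = 0.00881) and Rps6 (adjusted p = 0.0114) among them. DESeq2's Wald test called Rps6 alone (adjusted p = 0.0326). An unadjusted p under 0.05 was found in 14 of 75 members.

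In donor leptomeningeal cells no member was called between genotypes, although 72 of 75 folds were above 0. The median was 0.17 (quartiles 0.14 to 0.24) against -0.03 for all genes, and 0.0324% of all genes tested were higher and 0.0162% lower. In 16 members every mutant library exceeded every control library, against 1.37% of all genes tested, and 19 members had an unadjusted p under 0.05. Rplp0, the scaffold protein of the stalk, was at 2247, 2473, 2370 and 2425 CPM in the control and 2812, 2765, 2689 and 2769 CPM in the mutant libraries. Rpl38 was at 800.2, 833, 946 and 877 CPM against 1045, 976, 1014 and 947 CPM, so its genotypes touched at 946 and 947 CPM (log2 fold 0.22 ± 0.14, adjusted p = 1). Rps6 overlapped between genotypes (0.16 ± 0.13, adjusted p = 1). The smallest adjusted p belonged to Rpl29 (0.36 ± 0.11, adjusted p = 0.857). DESeq2, limma voom and each fit without 1 library also called no member. Neutrophil markers took 5.60 to 9.85% of UMIs in the control and 3.67 to 8.45% in the mutant libraries, and their part in these folds was not tested.

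Host leptomeningeal macrophages, with 2 libraries for each genotype, showed no called member and no called gene at all (0.0% higher and 0.0% lower). One member had an unadjusted p under 0.05, and DESeq2 and limma voom called none. The median fold was 0.11 against 0.01 for all genes, with 66 of 75 above 0. In 17 members both mutant libraries exceeded both control libraries, against 15.3% of all genes tested. Rps10 had the largest fold (0.66 ± 0.37, adjusted p = 0.934), at 46.0 and 23.9 CPM in the control and 54.2 and 56.3 CPM in the mutant libraries. Rpl38 (593 and 772 against 661 and 612 CPM) and Rps6 (263 and 280.2 against 257 and 270.5 CPM) overlapped between genotypes.

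**Figure D3:**
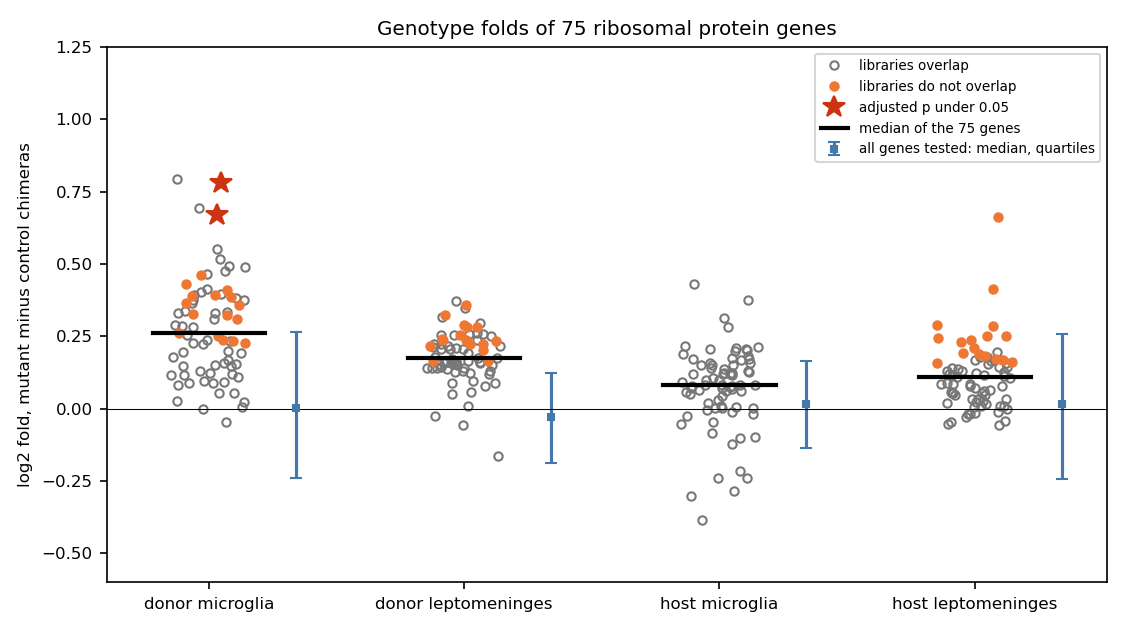
Log2 fold of mutant over control (y axis) for the 75 tested members in the 4 populations (x axis); grey points overlap between genotypes, orange points do not, red stars passed the test, and blue squares with bars mark the median and quartiles of all 12327 genes. The members' medians were 0.26 in donor microglia, 0.08 in host microglia, 0.17 in donor and 0.11 in host leptomeningeal cells.

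Donor and host microglia share the parenchyma but differ in origin. Host cells also belong to the irradiated Cx3cr1 gfp/+ mouse, and donor cells come from hDNMT3A fl/fl marrow. These differences go with origin in both compartments and cannot be told apart from it. Averaged over both genotypes, 72 of 75 members were higher in donor microglia and none lower, where 33.1% of all genes tested were higher and 27.3% lower. The median log2 fold was 1.06 (quartiles 0.79 to 1.39), a 2.08-fold difference, against 0.04 for all genes. The largest folds were those of Rps27a (2.45 ± 0.26, adjusted p = 3.52e-08), Rps10 (2.02 ± 0.19, adjusted p = 1.09e-10), Rpl13 (1.98 ± 0.08, adjusted p = 2.92e-25), Rpl29 (1.96 ± 0.08), Rpl39 (1.84 ± 0.25) and Rpl23a (1.64 ± 0.10). Rpl13, a large subunit protein, was at 508 to 646.5 CPM in the control and 587 to 681 CPM in mutant host microglia. In donor microglia it was at 2043 to 2090.0 CPM in the control and 1916 to 2405 CPM in the mutant libraries, with no overlap. Rps27a is made as a fusion with ubiquitin. It was at 131 to 254 CPM in the control and 92.2 to 276 CPM in mutant host libraries, and at 388.5 to 992 CPM in the control and 426 to 1307 CPM in mutant donor libraries.

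Rpl37, a large subunit gene, was among the 3 members not called. It was at 374 to 645 CPM in the control and 362 to 593 CPM in mutant host microglia. In donor microglia it was at 292 to 462 CPM and 379.6 to 764 CPM, which overlapped with the host range (log2 fold 0.01 ± 0.13, adjusted p = 0.958). Rpl36a had a fold of 0.36 ± 0.20 (adjusted p = 0.141). Of the family's other fixed members, Rpl38 differed by 0.80 ± 0.10, Rps6 by 0.73 ± 0.10, Rplp0 by 0.75 ± 0.07 and Rplp1 by 1.06 ± 0.08, each called. Markers of other cell types moved with this comparison. Of the astrocyte markers 11 of 11 were higher in donor microglia (median 6.69), with a summed share of 0.110 to 0.507% of UMIs against 0.0151 to 0.0207% in host microglia. All 13 neuron markers were higher (median 5.04), at 0.0376 to 0.202% against 0.00223 to 0.0047%. Neutrophil markers gave 13 higher and 1 lower of 18, at 0.112 to 1.11% against 0.0592 to 0.154%, and all 8 tested monocyte markers were higher, at 0.0201 to 0.0825% against 0.00249 to 0.00873%. Of 12 border macrophage markers 9 were higher, while all 12 markers of resting microglia were lower. Mitochondrially encoded genes took 1.58 to 4.72% of UMIs in donor and 0.114 to 0.349% in host microglia, with all 15 tested higher. The part of these markers in the members' folds was not tested. Leaving out any 1 library left 71 to 73 members called. Scaling to library totals in place of trimmed means (TMM) moved the median of all genes from 0.04 to -0.14 and that of the members from 1.06 to 0.89.

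Leptomeningeal donor cells exceeded leptomeningeal host macrophages in 65 members, and no member was lower (16.9% of all genes tested were higher and 13.3% lower). The median was 0.58 (quartiles 0.47 to 0.71), a 1.5-fold difference, against 0.01 for all genes. Rpl29 (1.06 ± 0.10, adjusted p = 1.67e-11), Rpsa (0.93 ± 0.10, adjusted p = 7.02e-11) and Rplp0 (0.92 ± 0.09, adjusted p = 2.19e-11) led, followed by Rps27, Rpl32 and Rps26 (0.89, 0.86 and 0.82). Rpsa, a small subunit protein also described as a laminin receptor, was at 1608 and 1466 CPM in the control and 1891 and 1728 CPM in mutant host libraries. It was at 2440.0 to 2541 CPM in the control and 2795 to 3028 CPM in mutant donor libraries, without overlap. Among the 10 not called were Rpl10 (0.18), Rps29 (0.19), Rps10 (0.13), Rpl39 (0.40, adjusted p = 0.112) and Rps4x (0.53, adjusted p = 0.0546).

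Several smaller calls of this comparison rested on single libraries. Rps6 (0.33 ± 0.11, adjusted p = 0.0235) missed the threshold without control donor library 2 (0.05), mutant donor library 2 (0.0515), control host library 1 (0.125), or mutant host library 1 (0.0702) or 2 (0.0826). Rplp1 (0.33, adjusted p = 0.00622) missed it without control host library 1 (0.0665) or mutant host library 2 (0.155). With library totals the members called fell to 48, as the median of all genes moved to -0.22 and that of the members to 0.35. The share of all genes called on that scale is not given, so 48 shows only how far the calls moved. On library totals Rps6 and Rplp1 were not called (adjusted p = 0.559 and 0.409). Neutrophil markers took 3.67 to 9.85% of UMIs in donor and 0.205 to 0.603% in host libraries, with 17 of 18 higher. All 8 tested monocyte markers were higher too, at 0.310 to 0.697% against 0.0407 to 0.0647%, as were 9 of 10 genes of dividing cells, while 11 of 12 border macrophage markers were lower. Their part was not tested.

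Compartments were compared within each origin. Parenchymal and leptomeningeal cells were freed by different steps, so compartment and isolation cannot be told apart. In host cells 74 of 75 members were higher in leptomeningeal macrophages than in microglia and none lower (31.1% of all genes tested were higher and 25.7% lower). The median was 1.48 (quartiles 1.11 to 1.76), a 2.8-fold difference, against 0.08 for all genes, with medians of 1.32 for large and 1.59 for small subunit genes. Rpl39 differed by 5.30 ± 0.22 (adjusted p = 4.32e-16), the largest value. It encodes a very small protein of the large subunit, which lines the tunnel through which new peptides leave (chromosome X, 37082520 to 37085402). Its level was 12.6, 12.01, 5.88 and 14.1 CPM in the control and 16.5, 14.0, 18.4 and 8.55 CPM in mutant host microglia. In host leptomeningeal libraries it was 425 and 392 CPM in the control and 511 and 456 CPM in mutant cells.

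The next were small subunit genes. Rps15a differed by 3.53 ± 0.21, Rps24 by 3.34 ± 0.13, Rps4x by 2.75 ± 0.20, Rps27 by 2.67 ± 0.16 and Rps25 by 2.39 ± 0.14 (adjusted p = 5.09e-14 for Rps27). Rps15a was at 20.5 to 56.3 CPM in the control and 24.4 to 46.6 CPM in mutant host microglia, and at 345 and 509 CPM in the control and 492 and 307 CPM in mutant host leptomeningeal libraries. Rps24, which is mutated in the inherited red cell disorder Diamond-Blackfan anaemia, was at 239 to 348 CPM in the control and 174 to 339 CPM in mutant host microglia, and at 2169 to 2793 CPM over the host leptomeningeal libraries of both genotypes. Neither gene overlapped between compartments. Rpl38 differed by 1.55 ± 0.12 and Rps6 by 1.03 ± 0.11, near and below the family median. Rpl15 was the member not called (0.25 ± 0.12, adjusted p = 0.0895). It passed without mutant microglia library 4 (adjusted p = 0.0216) or mutant leptomeningeal library 2 (0.0347). In the same comparison all tested border macrophage (12), T and NK cell (11) and monocyte (8) markers were higher in leptomeninges, with 13 higher and 1 lower of 18 neutrophil and 10 and 1 of 11 astrocyte markers. Of the 15 tested mitochondrially encoded genes 12 were higher, at 1.57 to 1.93% of UMIs against 0.114 to 0.349% in host microglia. Their part was not tested.

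In donor cells, 65 members were higher in leptomeninges and 3 were lower, against 30.5% and 31.6% of all genes tested. The median was 0.94 (quartiles 0.57 to 1.48), a 1.92-fold difference, against -0.03 for all genes. Rpl39 again led (3.86 ± 0.20, adjusted p = 3.62e-14), at 34.7 to 57.2 CPM in the control and 17.8 to 86.2 CPM in mutant donor microglia. It reached 396 to 619 CPM in the control and 441 to 585 CPM in mutant donor leptomeningeal cells. Rps27 (2.91 ± 0.14), Rps15a (2.53 ± 0.19), Rps24 (2.44 ± 0.12) and Rpl34 (2.24 ± 0.09) were also among the 6 largest. Rps27, a zinc-finger protein of the small subunit, was at 288 to 413 CPM in the control and 308 to 618 CPM in mutant donor microglia, and at 2117 to 2669 CPM and 2520.0 to 2710.0 CPM in donor leptomeningeal cells.

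The 3 members that were lower in donor leptomeningeal cells were Rps10 (-0.80 ± 0.17, adjusted p = 0.000222), Rpl13 (-0.48 ± 0.08, adjusted p = 6.58e-07) and Rpl15 (-0.48 ± 0.10, adjusted p = 7.5e-05). Rps10, a further gene of that disorder, was at 102, 57.8, 80.4 and 53.8 CPM in the control and 123, 77.9, 84.4 and 125 CPM in mutant donor microglia. In donor leptomeningeal cells it was at 43.6, 40.1, 67.6 and 27.3 CPM and 43.0, 36.2, 30.8 and 45.0 CPM, so that 1 control library reached into the microglial range. Rplp1, the most abundant member, did not pass (0.15, adjusted p = 0.0866), although it did without control leptomeningeal library 2 (adjusted p = 0.0451). Neutrophil markers gave 17 higher and 1 lower of 18 in donor leptomeningeal cells over donor microglia (3.67 to 9.85% of UMIs against 0.112 to 1.11%). All 8 tested monocyte markers and 9 of 10 genes of dividing cells were higher, and 11 of 12 border macrophage markers. All 11 astrocyte and 13 neuron markers were lower, as were 13 of 15 tested mitochondrially encoded genes (1.10 to 1.65% against 1.58 to 4.72%). Their part was not tested. This comparison shares its donor microglia with the comparison of origin, and the host comparison shares the host microglia with it.

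**Figure D4:**
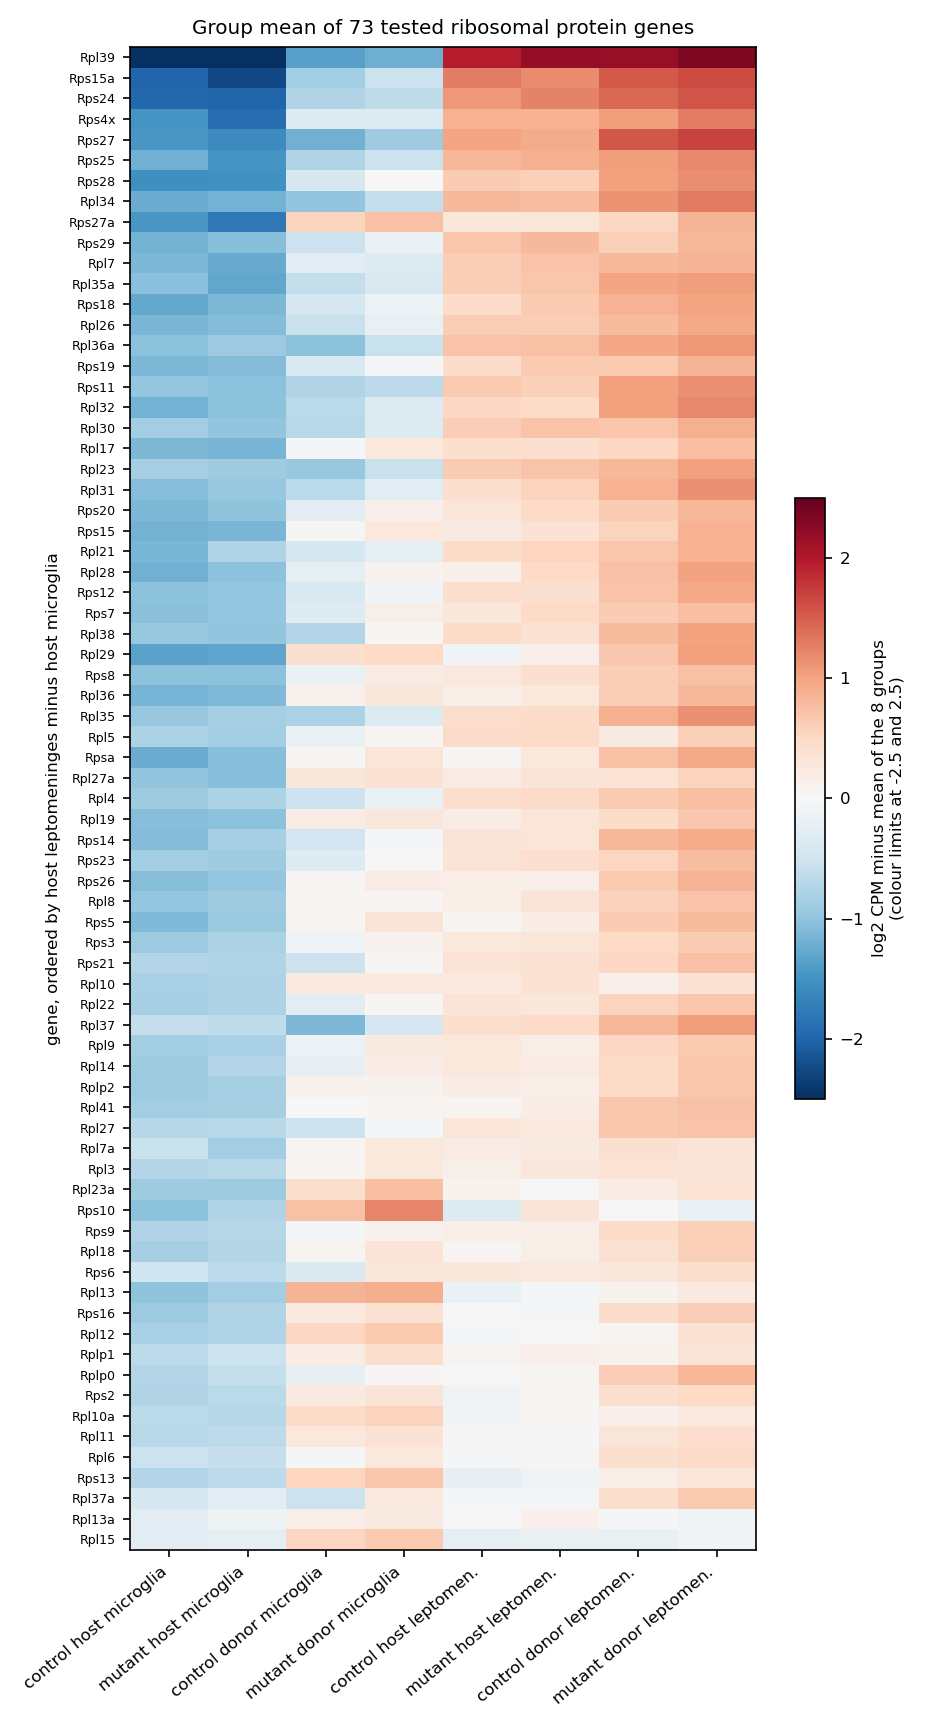
Log2 CPM of 73 tested members (rows) in the 8 groups (columns), as the difference from the mean of the groups, with members ordered by the difference between host leptomeningeal macrophages and host microglia; the colour scale ends at 2.5 on either side. Of all 76 members, 64 had their highest group mean in mutant donor leptomeningeal cells, and 70 had their lowest in host microglia of either genotype.

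The step between donor and host cells differed between the 2 compartments. The donor-minus-host difference in leptomeninges minus that in parenchyma was called in 52 members, smaller in leptomeninges for 50 and larger for 2, against 23.2% of all genes tested lower and 19.1% higher. The median was -0.49 (quartiles -0.78 to -0.24), with -0.05 for all genes. One of the larger ones was Rpl37 (0.72 ± 0.20, adjusted p = 0.00581), which was not called by origin in parenchyma but differed by 0.72 in leptomeninges. At the other end were Rps10 (-1.89 ± 0.29, adjusted p = 4.51e-06), Rps27a (-1.82 ± 0.38, adjusted p = 0.000567), Rpl13 (-1.50 ± 0.12, adjusted p = 4.52e-14), Rpl39 (-1.44 ± 0.31), Rpl23a (-1.19 ± 0.16) and Rpl27a (-1.12 ± 0.13). For Rpl38 the difference was -0.07 and did not pass (adjusted p = 0.768). Rps6 passed (-0.40 ± 0.15, adjusted p = 0.0268) but missed the threshold when any of 7 single libraries was left out, with adjusted p up to 0.0928, and also with the replicate number as a block (0.0808) or with no filter on low counts (0.0664). Leaving out any 1 library left 45 to 54 members called.

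**Figure D5:**
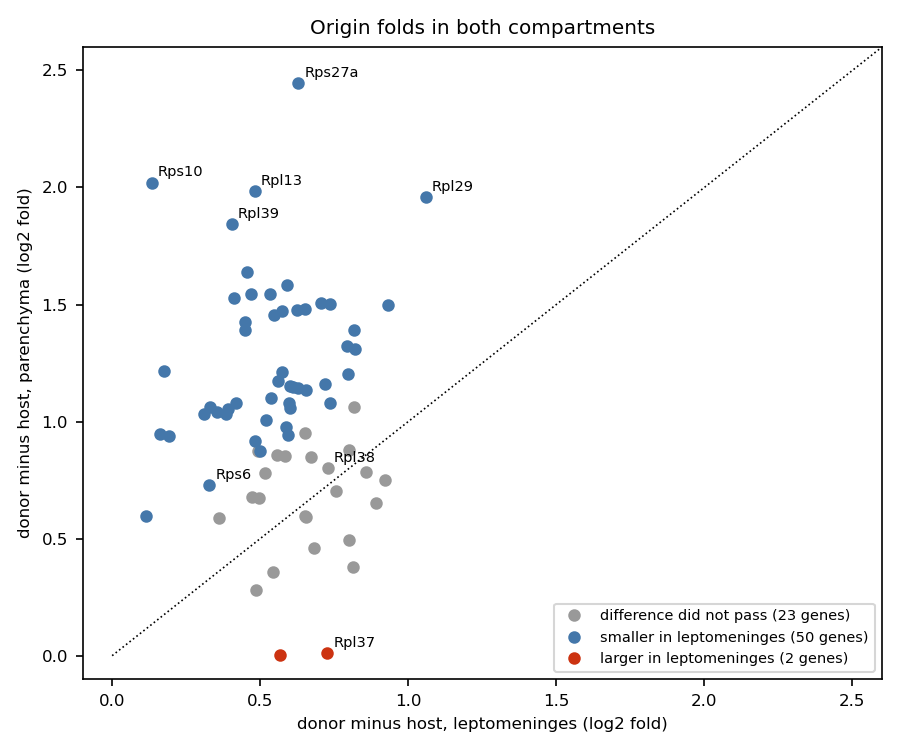
Log2 fold of donor over host cells in leptomeninges (x axis) and in parenchyma (y axis) for the 75 tested members; grey points did not pass the test of the difference (23), blue points had the smaller fold in leptomeninges (50) and red points the larger (2). Most members lie above the diagonal, with medians of 0.58 in leptomeninges and 1.06 in parenchyma.

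The members did not move as 1 block. Scaled to the family's own total, 22 members were still higher and 27 lower in donor than in host microglia, where this scaling called 16.1% of all genes higher and 68.8% lower. The same scaling gave 31 higher and 27 lower for donor leptomeningeal cells over donor microglia (9.02% and 71.5% of all genes), and 24 each way for host leptomeningeal macrophages over host microglia (9.47% and 71.8%). Within leptomeninges 8 were higher and 9 lower in donor cells (6.28% and 52.1%). Between genotypes of donor microglia 2 members exceeded the family's shift (0.0487% of all genes higher and 1.03% lower), Rpl38 (0.55 ± 0.14, adjusted p = 0.0391) and Rpl37a (0.57 ± 0.15, adjusted p = 0.0498). Rps6 no longer passed on that scale (0.44 ± 0.15, adjusted p = 0.112).

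The balance of large and small subunit transcripts differed by compartment. UMIs of large subunit genes stood to those of small subunit genes at 1.32 to 1.53 in every parenchymal library and at 1.10 to 1.16 in every leptomeningeal one, with no overlap. Group means were 1.47 ± 0.0451 in control and 1.39 ± 0.0673 in mutant donor microglia, and 1.45 in host microglia of both genotypes. They were 1.11 and 1.13 in donor and 1.15 and 1.14 in host leptomeningeal cells (control and mutant). The ratio sums over transcripts of members and was not tested. It leaves out small subunit genes outside the pattern, such as Fau and Rack1, and no subunit was measured. Across groups Rpl39 had the widest span, 47.2 times from its lowest to its highest group mean, followed by Rps15a (14.8), Rps24 (12), Rps27 (9.66) and Rps4x (9.07). The narrowest spans belonged to Rpl13a (1.42), Rpl15 (1.93), Rpl6 (2.06), Rplp1 (2.08) and Rpl37a (2.29).

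Ribosomal proteins whose symbols fall outside the pattern were counted separately, as 9 tested genes of 12 listed. In donor over host microglia 6 were higher and 2 lower (median 1.19), where 33.1% of all genes tested were higher and 27.3% lower. Fau, which encodes a ubiquitin-like protein fused to Rps30, differed by 1.19 ± 0.07 (adjusted p = 2.75e-19), and the small subunit scaffold Rack1 by 0.94 ± 0.07 (adjusted p = 3.46e-15). Rps3a1 differed by 1.30 ± 0.09. Rps27l, the paralog of Rps27, was lower in donor microglia (-0.31 ± 0.11, adjusted p = 0.013). Rpl22l1, the paralog of Rpl22, differed between host compartments by 3.62 ± 0.20 (adjusted p = 2.17e-17), at 95.3 CPM in leptomeningeal macrophages and 8.72 CPM in microglia. Rpl22 itself differed there by 1.28 ± 0.12. None of the 9 passed between genotypes in any population.

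Ribosomal protein pseudogenes formed 89 further rows of the table, of which 48 were tested. They took 0.0286 to 0.0954% of UMIs as group means. The sources used here do not say how reads shared by a gene and its copies were assigned, so members with copies are uncertain to that extent. In donor over host microglia 36 pseudogene rows were higher and 1 lower (median 1.74, against 33.1% and 27.3% of all genes), and in host leptomeningeal macrophages over host microglia 35 and 1 (median 1.73, against 31.1% and 25.7%). Donor leptomeningeal cells over donor microglia gave 10 higher and 11 lower (median 0.07, against 30.5% and 31.6%). Rpl13-ps3 was among the lower ones (-2.60, adjusted p = 2.65e-06), as was Rps10-ps1 (-0.43, adjusted p = 0.0082), the direction their parent genes took. Only 3 members were lower in that comparison and 65 were higher. Most of the 11 lower pseudogene rows therefore had a parent gene that was not called lower. No pseudogene row passed between genotypes in donor microglia.

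Other parts of the translation machinery were counted beside the family. Their counts stand beside 33.1% of all genes higher and 27.3% lower for donor over host microglia, and 16.9% and 13.3% for donor over host leptomeningeal cells. For leptomeninges over parenchyma the shares were 30.5% and 31.6% in donor and 31.1% and 25.7% in host cells. Of 36 translation initiation and elongation factors, 19 were higher and 7 lower in donor than in host microglia (median 0.43), and 17 and 1 in donor than in host leptomeningeal cells (median 0.28, with 10 and 4 and a median of 0.04 on library totals). They were also higher in leptomeninges, 26 against 4 in donor and 21 against 1 in host cells. Eef1a1, which delivers aminoacyl-tRNA to the ribosome, differed by 1.15 ± 0.07 between donor and host microglia, and Eef2, which moves the ribosome along, by 0.75 ± 0.08. Tpt1, a TOP message itself, differed by 1.50 ± 0.09 there but was lower in donor leptomeningeal cells than in donor microglia (-0.45 ± 0.09, adjusted p = 2.24e-05). Of 13 host genes of small nucleolar RNAs, 8 were higher and none lower in donor microglia. Gas5, a TOP gene of that list, differed by 0.51 ± 0.09 between microglia and by 1.51 ± 0.10 between host compartments.

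The 40 ribosome biogenesis genes went both ways. In donor over host microglia 7 were higher and 12 lower (median -0.20), with Nop2, an rRNA methyltransferase, at -1.16 ± 0.12; on library totals 4 were higher and 21 lower. All genes gave 33.1% higher and 27.3% lower there. In host leptomeningeal macrophages over host microglia 6 were higher and 11 lower (median -0.11, against 31.1% and 25.7% of all genes), yet Npm1, a nucleolar chaperone, was higher by 2.39 ± 0.18 and Nop10, a part of box H/ACA particles, by 2.73 ± 0.20. Of 32 regulators of ribosomal protein synthesis, 17 were lower and 1 higher in donor than in host microglia (median -0.38). Rptor, a defining subunit of mTOR complex 1, differed by -1.38 ± 0.10 (adjusted p = 1.21e-16). Ddit4, an mTOR inhibitor, differed by -1.51 ± 0.17. Mtor (-0.04 ± 0.15, adjusted p = 0.851) and Larp1 (-0.26 ± 0.14, adjusted p = 0.108) did not pass. Myc, a transcription factor that drives ribosome production, did not pass between microglia (-0.01 ± 0.14, adjusted p = 0.965) and was lower in host leptomeningeal macrophages than in host microglia (-1.53 ± 0.20, adjusted p = 1.08e-08). The 76 mitochondrial ribosomal protein genes, a separate set that serves the mitochondrial genome, had 30 higher and 8 lower in donor microglia (against 33.1% and 27.3% of all genes; median 0.21, with 21 and 15 and a median of 0.03 on library totals).

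Between genotypes these lists gave 1 call. Ddit4 rose in host microglia of mice with mutant marrow (0.87 ± 0.17, adjusted p = 0.0271), at 119.9 against 66.9 CPM on average. It missed the threshold without control library 1 (adjusted p = 0.112), 2 (0.158) or 3 (0.173), or mutant library 2 (0.179), 3 (0.148) or 4 (0.193). In donor microglia its fold was 1.18 ± 0.30 (adjusted p = 0.144). In donor microglia the list medians between genotypes were 0.08 for translation factors, 0.07 for biogenesis genes, -0.07 for regulators, 0.19 for small nucleolar RNA hosts and 0.04 for mitochondrial ribosomal proteins, beside 0.26 for the cytosolic family.

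Genes whose level ran most closely with the family's share were ranked by the Pearson correlation of log2 CPM with the log2 share over the 28 libraries, among 8392 genes outside the pattern. These libraries form 8 groups and share the family as part of their total, so the values describe a likeness and carry no p. Fau (0.992) and Rack1 (0.988) came first, both ribosomal proteins. After them came Lilr4b (0.983), Ptger4 (0.981), Krt80 (0.979), Ciita (0.977), Dusp2 (0.976), Nsa2 (0.976), Ifitm2 (0.976) and Anxa5 (0.975). The median over all ranked genes was -0.38. Among members the median was 0.935, and 50 of 75 exceeded 0.9. The members least like their family were Rpl15 (0.189), Rpl13a (0.329), Rps10 (0.435) and Rpl13 (0.629).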

How the data were processed

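The authors deposited 1 table. Per the file headers it has raw, normalized and rlog columns for every library. The raw columns are whole UMI counts by gene symbol, as deposited. The submitters' processing notes name mm10, and no source used here names the aligner or counter. In the deposited normalized columns the signal equals the counts divided by 1 factor per library. The rlog columns are log2 values, per the file headers. Neither of these was used.

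CPM used the library total. Folds came from edgeR 4.0.16 (R 4.3.3) with TMM scaling, filterByExpr, a robust quasi-likelihood fit with 1 mean for each of the 8 groups over all 28 libraries, and Benjamini-Hochberg adjustment over 12327 genes at 0.05. Origin and compartment comparisons average both genotypes equally. Alternatives used DESeq2 1.42.0, limma 3.58.1, other scalings and filters, a replicate block and left-out libraries.

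The members and gene lists were chosen with earlier results of these data known. The text names, in each comparison, the 6 largest folds each way among called members with a mean of at least 10 CPM, a fixed set of members, the 5 members highest and lowest in level and in spread over groups, and up to 4 called genes of each list. Other members were named after their values were seen. Rps3a1 joined its list after the table's symbols were read. Promoter sequences came from RefSeq. UMI counts allow no level under 3 UMIs to be told from 0. Some genes within the naming rule are not reported here.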

Additional observations from a re-analysis of the deposited data

Results flagged for a closer look

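Among 228 sets of 4 libraries (38 quantities in the 6 groups of that size), 10 were flagged for 1 library apart from the other 3. Chance alone marks about 1 in 20 sets, so 10 of 228 is no more than chance alone would mark. They are listed as values only. Of the members, Rps27a was at 388.5 CPM in control donor microglia library 2 (899.6 to 991.9 in the others), Rps4x at 39.69 CPM in mutant host microglia library 4 (164.3 to 184.2), and Rpl39 at 57.22 CPM in control donor microglia library 4 (34.66 to 36.08). Rpl22 was at 374.0 CPM in control donor microglia library 3 (284.5 to 296.4) and Rpl3 at 1001 CPM in mutant donor leptomeningeal library 4 (900.3 to 917.4). Outside the pattern, Rpl22l1 was at 103.6 CPM in mutant donor leptomeningeal library 2 (68.33 to 73.06), Rack1 at 1160.0 CPM in control donor microglia library 4 (1264 to 1275) and Eef2 at 1393 CPM in mutant donor microglia library 3 (993.1 to 1014). Mtor was at 14.93 CPM in mutant donor microglia library 2 (26.64 to 28.72) and Pabpc1 at 169.1 CPM in control donor microglia library 1 (216.6 to 225.4).

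By the interaction test, the effect of origin differed between compartments in 52 members, against 19.1% of all genes tested higher and 23.2% lower. The effect of genotype differed between donor and host microglia in 0, against 0.0162% higher and 0.0162% lower. Among those with large differences by origin were Rpl37 (0.7153), larger in leptomeninges, and Rps10 (-1.888), Rps27a (-1.817), Rpl13 (-1.502), Rpl39 (-1.438), Rpl23a (-1.186) and Rpl27a (-1.118), smaller there, all on the log2 scale.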

How the results depend on the processing

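Between genotypes of donor microglia the number of members called moved from 2 to 17 with DESeq2's Wald test (0.414% of all genes higher). It moved to 11 with limma voom (1.05%), 1 with library totals (0.0487%) and 0 with only these groups in the fit (0.041%). Without 1 library it ran from 0 to 23, with 3.88% of all genes higher where it was 23. The difference between genotype effects moved from 0 to 1 with DESeq2 and ran from 0 to 3 without 1 library. Where no share over all genes stands beside a count, here or above, the count shows only how far the calls moved. Scaled to the family's total, which measures change within the family, counts moved to 17 for donor over host leptomeninges (6.28% of all genes higher and 52.1% lower). They moved to 48 for host compartments (9.47% and 71.8%) and 34 for origin by compartment (39.2% and 14.6%). Without neutrophil, astrocyte and neuron genes in the denominator the share was 13.45% in control and 15.0% in mutant donor leptomeningeal cells. Eef1a1 in donor leptomeningeal cells over donor microglia changed sign with library totals, from 0.231 to -0.00879 (adjusted p = 0.924). Over 468 single-gene results, 9939 alternative values kept direction and call, 82 lost the call, 66 gained it, 1 reversed and 201 uncalled values changed sign.

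Correlations of same-numbered deviations ran from -0.184 to 0.125. Such values cannot show whether libraries with the same replicate number share an animal, so the pairing is unknown. With the number as a replicate block, 2 members were called between genotypes of donor microglia (0.0649% of all genes higher). This fit called 72 members for donor over host microglia, and 64 and 74 for the leptomeningeal origin and host compartment comparisons. It called 68 for donor compartments and 50 for origin by compartment. These counts show only how far the calls moved, as their shares over all genes are not given. At 479077 UMIs, 3 UMIs correspond to 6.262 CPM, so Rpl24 could not be followed.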
